A study of Mus musculus with 6 samples.

Results

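The globins are the protein chains of hemoglobin, and AHSP is the chaperone that holds free alpha chains in solution until a beta chain binds them. The set was given by gene symbol and lists 8 genes. These are the adult alpha genes Hba-a1 and Hba-a2, the adult beta genes Hbb-bs and Hbb-bt, the embryonic genes Hba-x, Hbb-bh1 and Hbb-y, and Ahsp. The symbol matched 7 rows of the deposited table of 52459 genes. Ahsp is not analysed here. The libraries were made from megakaryocytic-erythroid progenitors (MEPs), marrow cells that can still form either platelet-producing megakaryocytes or red cells. Wild-type (WT) mice gave 3 libraries, and Tmprss6-/- mice, called KO here, gave 3. Each library held cells pooled from 3 mice and sorted together. TMPRSS6 is a liver protease that holds hepcidin down, and mice without it are short of iron. The sources used here do not give the mice's strain and age, or how the Tmprss6-/- allele was made. Sorted cells carried cKit and CD150 and lacked lineage markers, Sca, the Fc gamma receptor, CD105 and CD41. RNA was amplified from low input with SMART-Seq v4 before Nextera XT library preparation.

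Adult mouse hemoglobin is a tetramer of alpha and beta chains, each of which carries a heme with an iron atom. The alpha and beta clusters lie on different chromosomes and are switched on together as erythroid precursors mature, under GATA1, KLF1 and distal enhancers. Embryonic globins are used by the first red cells of the yolk sac. Transcription of adult globins rises steeply after the progenitor stage, so that a progenitor pool is measured at the low end of their range.

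The adult genes come in near-identical copies. In the GENCODE M21 transcripts, the coding sequences of Hba-a1 and Hba-a2 are 429 bases long and differ by 1 substitution, C381T, with positions counted from 1 at the A of the start codon, the base of Hba-a1 first. Those of Hbb-bs and Hbb-bt are 444 bases long and differ by 1 substitution as well, C417T, the base of Hbb-bs first. Neither substitution changes the encoded protein. The stretches that hold the differing base, in capitals, are shown because they mark the only place within the coding sequence where a read can tell the copies apart.
Hba-a1: gcatgcctctctggaCaaattccttgcctc
Hba-a2: gcatgcctctctggaTaaattccttgcctc
Hbb-bs: ggtggctggagtggcCgctgccctggctca
Hbb-bt: ggtggctggagtggcTgctgccctggctca
Of all stretches of 50 bases in the longest annotated transcript of each gene, 67.5% for Hba-a1, 86.9% for Hba-a2, 65.8% for Hbb-bs and 58.3% for Hbb-bt also occur in the paralog. The sources used here do not say how the authors treated reads that map to several places. The split of counts within each adult pair is therefore uncertain, and sums over both copies are given beside it.

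The promoters of the 4 adult genes are shown because these genes moved together in the libraries. RefSeq promoter windows (GRCm38.p6) were matched for 6 of the 8 genes. The 247 bases before the start that could be laid over each other were identical between Hba-a1 and Hba-a2. Over 99 aligned bases nearest the start, those of Hbb-bs and Hbb-bt were 73.7% identical. The CCAAT box, in capitals, stands 75 to 91 bases before the RefSeq start in the adult genes. The stretches of Hba-a1 and Hbb-bs shown here lie inside the Ensembl gene spans printed below, which begin further upstream. Those of Hbb-bt do so in part, and those of Hba-a2 lie outside. The stretches are chr11:32283572-32283601 (+) for Hba-a1, chr11:32296389-32296418 (+) for Hba-a2, chr7:103827987-103828016 (-) for Hbb-bs and chr7:103813981-103814010 (-) for Hbb-bt.
Hba-a1: agcacaaaccagCCAATgagaactgctcca
Hba-a2: agcacaaaccagCCAATgagaactgctcca
Hbb-bs: ccctggtaagggCCAATctgctcacacagg
Hbb-bt: ccctggcattggCCAATctgctcagagagg
The letters ATATAA, part of the TATA-like box, follow at 28 to 31 bases before the start, again in capitals. This motif was added after the sequences had been read. The stretches are chr11:32283632-32283661 (+), chr11:32296449-32296478 (+), chr7:103827941-103827970 (-) and chr7:103813935-103813964 (-).
Hba-a1: cccttggagggcATATAAgtgctacttgct
Hba-a2: cccttggagggcATATAAgtgctacttgct
Hbb-bs: ccagggcagagcATATAAggtgaggtagga
Hbb-bt: ccagcattgggtATATAAagctgagcaggg
A longer stretch of Hba-a2 (chr11:32296362-32296481, +) shows both boxes and a CACCC box between them, the letters that KLF1 is known to read in the beta-globin promoter.
Hba-a2: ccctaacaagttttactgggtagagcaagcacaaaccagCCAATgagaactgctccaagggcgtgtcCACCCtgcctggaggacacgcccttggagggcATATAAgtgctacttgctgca
Searched on both strands in the 250 bases before the start, CCAAT occurs in 33.8%, CACCC in 52.0% and ATATAA in 9.10% of 32851 promoter windows. CACCC is in the windows of all 6 matched genes, and CCAAT in those of the 4 adult genes and Hbb-y. AGATAA, a form of the GATA site that 9.99% of windows hold, is in that of Hbb-bs alone, 210 bases before the start. TATAAA (12.4% of windows) is in those of Hbb-bt and Hba-x, where it overlaps ATATAA, and CATAAA (10.8%) in that of Hbb-y.

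Total counts were 13402209 to 22986837 per library. The progenitor genes Kit, Gata1 and Klf1 stood at 316 to 1640, 381 to 610 and 468 to 693 CPM (counts-per-million, scaled by TMM) over the 6 libraries. Tmprss6 itself had 0 to 5 counts in either genotype and could not check the labels. KO replicate 2 stood apart. It held 182 CPM of Fcgr3, a receptor that the sort excludes, against 2.70 to 18.3 CPM elsewhere. Fcgr2b and Ly6a (Sca) were also highest there, at 28.8 and 13.9 CPM against 3.01 to 4.84 and 1.35 to 3.85 elsewhere. Itga2b (CD41) and Eng (CD105), excluded by the sort as well, did not set it apart. They stood at 91.3 to 146 and 56.5 to 119 CPM in WT, and at 103 to 126 and 51.4 to 112 CPM in KO. Every marker list of other blood cells was highest in KO replicate 2. The summed level of 14 macrophage genes was 3015 CPM in KO replicate 2, 83.6 to 255 in WT and 138 and 299.9 in the other KO libraries. The same sums were 8967, 150.5 to 835 and 54.1 to 298 for 14 eosinophil, basophil and mast cell genes, and 3440, 83.4 to 382 and 120 to 283 for 13 neutrophil genes. For 15 lymphoid and plasma cell genes they were 1776, 279 to 591 and 586 to 1282, and for 15 megakaryocyte genes 573, 255 to 327 and 285 to 291. All 14 macrophage genes had counts in 5 libraries and 13 in WT replicate 3, where Mertk was at 0. KO replicate 3 had no counts of the eosinophil and basophil genes Prg3, Epx, Ear1, Ear6, Mcpt8 and Il5ra, nor of the mast cell gene Cma1. The neutrophil gene Ly6g was at 0 in 4 libraries and present in WT replicate 3 and KO replicate 2. Results below are given with and without KO replicate 2, and the part of other cells in them was not tested. In sorted pools, more cells of a type and more RNA per cell cannot be told apart.

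Adult globin transcripts were present in every library and higher in each KO library than in each WT library. Hbb-bs (ENSMUSG00000052305, chromosome 7, 103826534 to 103828096, minus strand) was measured at 42.7, 56.7 and 26.6 CPM in WT replicates 1 to 3. In KO replicates 1 to 3 it stood at 98.6, 1627 and 122 CPM. KO replicate 2 was 13.4 times the highest of the other libraries. It was at least 10 times as high for 3 of the 4 adult genes (8.64 times for Hba-a2), as for 0.981% of all genes tested. In Hbb-bs the other KO libraries lay between 98.6 and 122 CPM, above the WT range of 26.6 to 56.7. Its partner Hbb-bt (ENSMUSG00000073940, chromosome 7, 103812524 to 103813996, minus strand) had WT values of 13.8, 13.3 and 8.61 CPM and KO values of 27.0, 381 and 27.1 CPM. The groups did not overlap for this gene either, and KO replicates 1 and 3 were nearly equal.

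The alpha genes, on the other chromosome, showed the same separation of the genotypes. Hba-a1 (ENSMUSG00000069919, chromosome 11, 32283511 to 32284465, plus strand) read 45.1, 49.1 and 33.5 CPM in the WT replicates and 91.9, 1565 and 102 CPM in the KO replicates. Hba-a2 (ENSMUSG00000069917, chromosome 11, 32296489 to 32297298, plus strand) read 8.25, 7.65 and 7.33 CPM, then 13.3, 183 and 21.2 CPM. WT replicate 3 was the lowest library for all 4 adult genes, and KO replicate 2 the highest. Every KO library lay above every WT library for 4 of 4 adult genes, a pattern that 2.27% of the 13453 genes tested showed. The 4 genes had a correlation r of 0.985 to 0.999 among themselves over the 6 libraries. They are therefore not 4 separate observations, here or in the comparisons with all genes below.

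**Figure D1:**
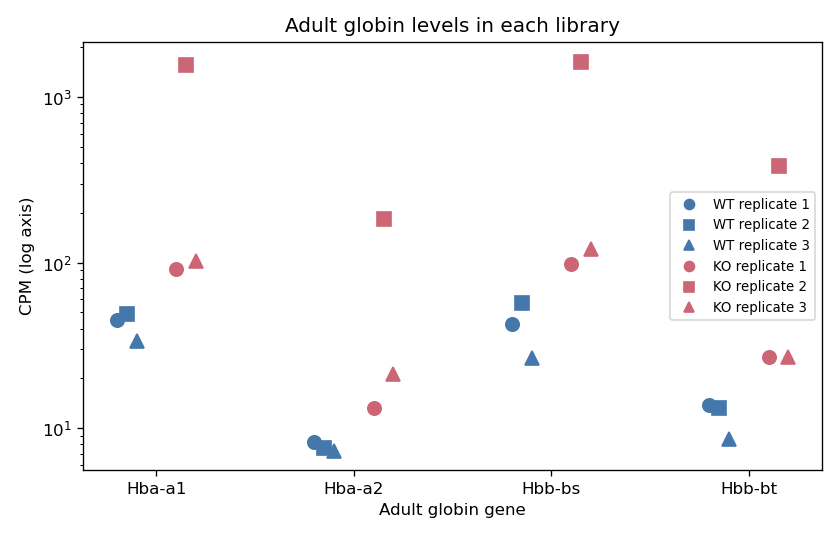
Level of each adult globin gene (CPM, log axis) in each of the 3 WT and 3 KO libraries, 1 point per library. For every gene the KO points lie above the WT points, and KO replicate 2 lies far above the other 5, at 1627 CPM for Hbb-bs.

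Averaged over the genotypes, the WT and KO levels of Hbb-bs were 42.0 ± 15.1 and 616 ± 876 CPM (SD, n = 3), and those of Hba-a1 42.6 ± 8.11 and 586 ± 848 CPM. Hbb-bt was at 11.9 ± 2.87 and 145 ± 204 CPM, and Hba-a2 at 7.74 ± 0.470 and 72.4 ± 95.7 CPM. In each gene the KO spread exceeded the KO mean, because KO replicate 2 set both. In edgeR's quasi-likelihood fit over all 6 libraries the log2 fold changes, KO over WT, were 3.87 (SE 1.12) for Hbb-bs, 3.60 (SE 1.07) for Hbb-bt, 3.78 (SE 1.12) for Hba-a1 and 3.22 (SE 0.96) for Hba-a2. None of the 4 passed the threshold of 0.05 after Benjamini-Hochberg adjustment over all genes (edgeR adjusted p = 1.00 for each), where 0% of genes were called. Their unadjusted edgeR p ran from 0.00896 to 0.0104, so that 4 of 4 were under 0.05 as higher in KO, against 1.53% of all genes tested. A two-sided exact permutation test on the log2 CPM of each gene gave p = 0.1, the smallest that 3 against 3 libraries allow.

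Without KO replicate 2 the differences were smaller and in the same direction. The log2 fold changes were then 1.39 (SE 0.38) for Hbb-bs, 1.18 (SE 0.33) for Hbb-bt, 1.18 (SE 0.30) for Hba-a1 and 1.15 (SE 0.35) for Hba-a2. With the replicate number as a block, on all 6 libraries, they were 2.69, 2.40, 2.42 and 2.19. None passed the adjusted threshold in either fit, in which edgeR called 0% of genes. Without KO replicate 2, 4 of 4 had an unadjusted edgeR p under 0.05 as higher in KO (0.00622 to 0.0140), against 0.226% of 13703 genes. The fold over 6 libraries was thus set by KO replicate 2, while the sign was the same without it, as the separation of the groups already implied. DESeq2 called 0.0446% of genes, and 0.178% with the block, and limma voom 0%, with 0 adult globins among them; DESeq2 without a block gave no p for Hba-a1, Hbb-bs and Hbb-bt.

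Libraries of the same replicate number were compared as pairs. They deviated together from their group means in pairs 1 and 3 (r = 0.53 and 0.63) and only weakly in pair 2 (0.16). All 4 adult genes were higher in KO within each of the 3 pairs, as 11.5% of all genes tested were. With every KO library above every WT library, this could not have been otherwise, so it is not a separate result. For Hbb-bs, the log2 difference was 1.21 in pair 1, 4.84 in pair 2 and 2.19 in pair 3. For Hba-a1 it was 1.02, 4.99 and 1.60, for Hbb-bt 0.96, 4.83 and 1.64, and for Hba-a2 0.68, 4.56 and 1.51. In each gene pair 1 had the smallest difference and pair 2 the largest. When only pairs 1 and 3 were fitted, blocked by number, 3 of the 4 genes passed the adjusted threshold as higher in KO. Of 13572 genes tested there, 0.862% passed, 0.258% as higher and 0.604% as lower. Hbb-bs rose 3.20-fold (log2 fold change 1.68, SE 0.18, edgeR adjusted p = 0.000116), Hba-a1 2.47-fold (1.30, SE 0.14, edgeR adjusted p = 0.000150) and Hbb-bt 2.45-fold (1.29, SE 0.24, edgeR adjusted p = 0.0158). Hba-a2 did not pass, at 1.10 on the log2 scale (SE 0.28, edgeR adjusted p = 0.082). The choice of these pairs was made with the state of KO replicate 2 known, and with 1 residual degree of freedom the fit borrows 14.5 prior degrees of freedom from all genes. Other-cell markers also differed within these pairs. The eosinophil, basophil and mast cell sum was lower in KO in both, at 298 against 835 CPM in pair 1 and 54.1 against 150.5 CPM in pair 3. Of its 12 tested genes, 6 passed as lower. The macrophage sum was lower in KO in pair 1, at 138 against 255 CPM, and higher in pair 3, at 299.9 against 83.6 CPM. The lymphoid sum was 586 against 591 CPM in pair 1 and 1282 against 279 CPM in pair 3, and 1 of 14 genes passed as higher. The neutrophil sum was 120 against 382 CPM and 283 against 83.4 CPM, and 2 of 10 genes passed as lower. Their part in the globin values was not tested.

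**Figure D2:**
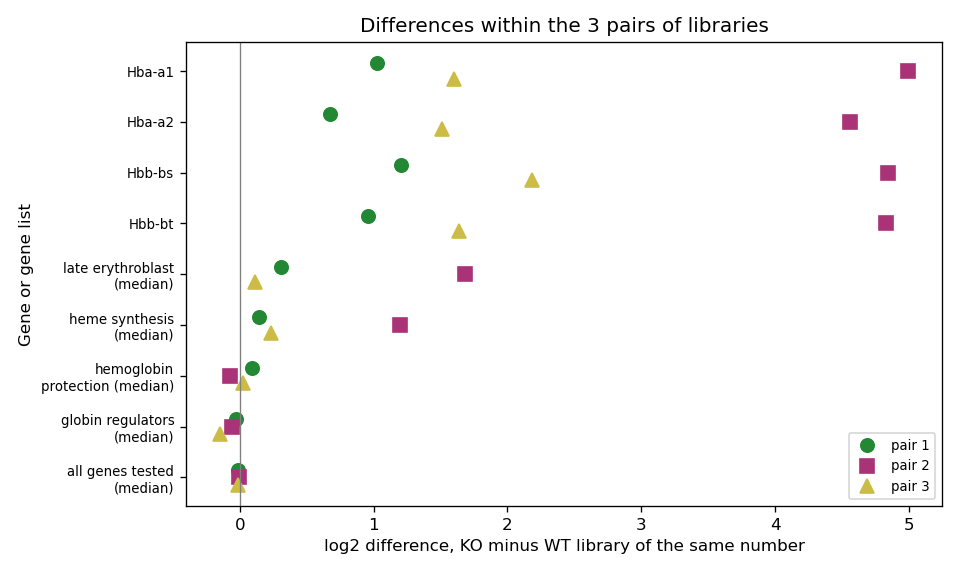
Log2 difference between the KO and WT library of the same number, for each adult globin gene and as the median of each gene list, 1 point per pair. All 12 globin points are above 0, between 0.68 and 4.99, while the median of all genes tested lies near 0 in each pair.

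**Figure D3:**
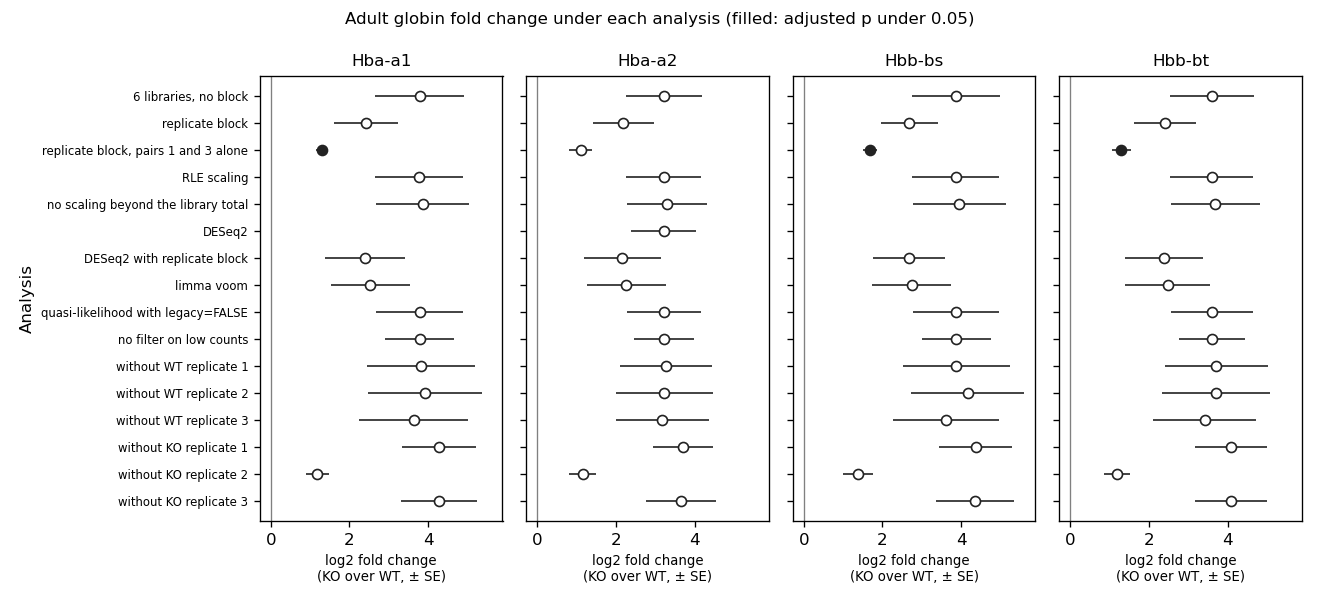
Log2 fold change of each adult globin gene (KO over WT, bars ± SE) in the fit of 6 libraries and in each alternative, filled where the adjusted p was under 0.05. Values run from 1.10 to 4.37, the 2 lowest of each gene come from the 2 analyses that leave KO replicate 2 out (without it, and the pairs 1 and 3), and 3 points of the pairs 1 and 3 are filled. DESeq2 without a block gave no p for 3 genes, which have no point there.

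The embryonic globins were at or near 0. Hbb-bh1, which encodes an embryonic beta-like chain, had 0 counts in all 6 libraries. Hba-x, the embryonic alpha-like gene, had 3 counts and Hbb-y, another embryonic beta-like gene, 1 count, all in KO replicate 2 and none in the other libraries. The floor was set at 3 counts, which is 0.131 to 0.224 CPM of the unscaled total per library. A lower level could have been missed at this depth. None of the 3 passed the filter on low counts, and no fold change is given. The adult genes passed it through both groups, since each WT library held at least 103 counts of each.

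**Figure D4:**
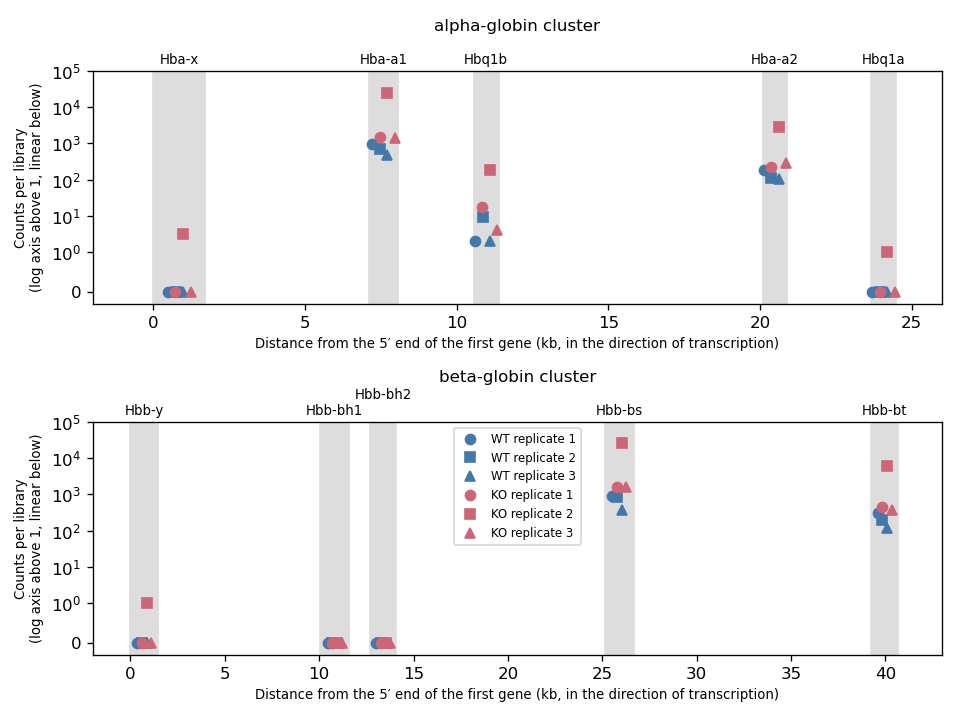
Counts per library along the alpha (top) and beta (bottom) globin clusters, plotted against distance from the first gene in kb, with gene spans in grey. The axis is logarithmic above 1 and linear below. The adult genes carry 103 to 26162 counts, while the embryonic genes carry at most 3.

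Per kilobase of the longest annotated transcript, Hbb-bs and Hba-a1 were the most abundant globins and could not be ranked in WT. Hbb-bs stood at 68.0, 90.3 and 42.4 CPM per kb in WT replicates 1 to 3 and Hba-a1 at 64.5, 70.3 and 47.9. The order of the pair differed between libraries, and the ranges overlapped. In KO, Hbb-bs was the higher of the pair in 3 of 3 libraries, at 157, 2591 and 193 CPM per kb against 131, 2238 and 145. Hbb-bt and Hba-a2 were lower, at 12.2 to 19.7 and 13.2 to 14.9 CPM per kb in WT, where they overlapped. Among the 52319 genes with a known length, Hbb-bs ranked 999 to 2146 in the WT libraries, 753 in KO replicate 1 and 338 in KO replicate 3. In KO replicate 2 it ranked 4, and Hba-a1 ranked 6.

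Alpha and beta counts were both higher in KO. Adult alpha counts (Hba-a1 plus Hba-a2) came to 1157, 824 and 574 in the WT replicates and 1719, 28097 and 1672 in the KO replicates. Adult beta counts (Hbb-bs plus Hbb-bt) were 1226, 1016 and 495 in WT and 2055, 32285 and 2023 in KO. The log2 ratio of alpha over beta counts was -0.057 ± 0.26 in WT and -0.24 ± 0.039 in KO (SD, n = 3). The 3 KO libraries were close to each other, at -0.27 to -0.20, and lay within the WT range of -0.30 to 0.21. The difference of -0.19 log2 units was smaller than the WT spread. It was -0.051 without WT replicate 3 and -0.31 without WT replicate 2, so that the WT libraries set its size. Within pairs the ratio was lower in KO in pairs 1 and 3, by -0.17 and -0.49, and higher in pair 2, by 0.10. Hba-a1 held 82.1 to 86.5% of the alpha counts in WT and 82.8 to 89.5% in KO. Hbb-bs held 75.5 to 81.0% of the beta counts in WT and 78.5 to 81.8% in KO. Both shares overlapped between the genotypes, and both were higher in KO in 3 of 3 pairs. Within pairs 1, 2 and 3 the share of Hba-a1 differed by 2.85, 3.01 and 0.719 percentage points and that of Hbb-bs by 2.96, 0.031 and 6.20. No test was made of these shares, and they rest on how reads common to both copies were counted.

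**Figure D5:**
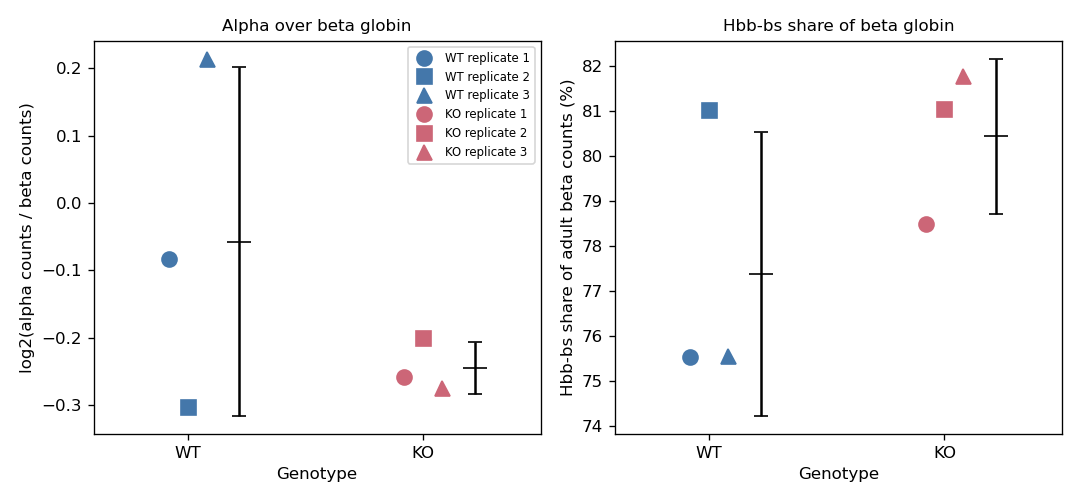
Log2 ratio of adult alpha over adult beta counts (left) and share of Hbb-bs among adult beta counts in percent (right), 1 point per library, with mean ± SD of each genotype in black. The genotypes overlap in both panels, and the KO libraries lie between -0.27 and -0.20 on the left.

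Together the 4 adult genes took 104, 131 and 78.2 CPM of the unscaled total in the WT replicates and 208, 4017 and 276 in the KO replicates. The exact Clopper-Pearson 95% intervals spanned 73.6 to 138 over the WT libraries, 202 to 215 in KO replicate 1 and 267 to 285 in KO replicate 3, and they cover counting error only. The mean of KO exceeded that of WT by 1396 CPM with KO replicate 2 and by 138 without it.

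Genes of the erythroid program were compared as lists, by counts and medians. Of 30 genes of late erythroblasts 29 were tested, and 25 were higher and 4 lower in KO, where 49.3% of all genes tested were higher. Their median log2 fold change was 0.84 against -0.0048 for all genes tested, and 0.21 without KO replicate 2. In the fit of the pairs 1 and 3, 19 were higher and 10 lower, with a median of 0.18. None passed the edgeR threshold over 6 libraries, where 0% of genes were called. The medians within the pairs 1, 2 and 3 were 0.31, 1.68 and 0.12, and 13 of the 29 were higher and 1 lower in KO in all 3 pairs, against 11.5% and 13.3% of all genes tested. Some single genes of the list lay within or above the range of the globins: the pairs gave 1.56, 6.28 and 2.14 for Trim10, an erythroid ubiquitin ligase, and 1.01, 7.12 and 1.84 for Slc4a1, the red cell anion exchanger. In the blocked edgeR fit of the pairs 1 and 3, 3 of the 29 passed as higher and 0 as lower, against 0.258% and 0.604% of all genes. They were Trim10 (log2 fold change 1.88, adjusted p = 0.0497), Rhag, a partner of the Rh blood group proteins (0.66, adjusted p = 0.0339), and Cldn13, a claudin of mouse erythroid cells (0.79, adjusted p = 0.0177), the last named after its values were seen. Summed without the carbonic anhydrase genes Car1 and Car2, which made up 57.2 to 81.9% of the list's CPM, the list stood at 2039 to 2291 CPM in WT. It stood at 2394 and 2319 CPM in KO replicates 1 and 3 and at 5417 CPM in KO replicate 2.

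Heme, the group that globin carries, is made by a short chain of enzymes. Of 12 genes of heme synthesis and its transport 11 were higher and 1 lower in KO, where 49.3% of all genes tested were higher. Their median log2 fold change was 0.63, and 0.14 in the pairs 1 and 3. Over 6 libraries 0 passed, where 0% of genes were called. In all 3 pairs, 7 of the 12 were higher and 0 lower in KO, against 11.5% and 13.3% of all genes tested. Alas2, the erythroid enzyme that starts the chain, and Cpox, a later enzyme, rose in the pairs 1 and 3 (log2 fold changes 1.93 and 0.60, edgeR adjusted p = 0.00948 and 0.0174), 2 of 12 where 0.258% of all genes passed as higher. Fech, which inserts the iron, had a log2 fold change of 0.36 there and did not pass.

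No regulator of the globin genes passed the test. Of 24 listed, 22 were tested, 9 higher and 13 lower in KO, where 49.3% of all genes tested were higher. Their median log2 fold change was -0.064. In the fit of the pairs 1 and 3, 6 were higher and 16 lower, with a median of -0.14, where 48.5% of all genes were higher. Within pairs, 9 of the 22 were lower in KO in all 3 and 2 were higher in all 3, against 13.3% and 11.5% of all genes tested. In either direction 0 passed in either fit, where 0% and 0.862% of all genes were called. Klf1, which drives the adult beta genes, spanned 506 to 665 CPM in the WT libraries and 468 to 693 in KO. Bcl11a, which silences fetal and embryonic globins, was at 98.4 to 152 and 79.2 to 145 CPM. Both genes overlapped between the genotypes, while Bcl11a was lower in KO in 3 of 3 pairs, at -0.31, -0.32 and -0.066 on the log2 scale. The 3 regulators of smallest p were Hic2, a repressor of Bcl11a in human cells, Mbd2, a methyl-DNA binding protein, and Lmo2, a scaffold of the GATA1 and TAL1 complex. Their log2 fold changes were -0.68, 0.41 and -0.28, none past the threshold. Every KO library lay below every WT library for 3 of the 22, Hic2, Lmo2 and the erythroid factor gene Nfe2, as for 1.75% of all genes tested, and above for 0 of the 22. The gap was narrow for Lmo2 and Nfe2, whose highest KO values were 402.8 and 790.3 CPM and lowest WT values 403.1 and 792.7 CPM. Hic2 was low, at 1.16 to 3.31 CPM over the 6 libraries. Lin28b and Igf2bp1, both known from fetal globin control in human cells, had at most 1 count in any library.

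Of 20 genes that assemble or protect hemoglobin, 12 were higher and 8 lower in KO over 6 libraries. In the pairs 1 and 3, 13 were higher and 7 lower. Of all genes tested in these fits, 49.3% and 48.5% were higher. The median log2 fold changes were 0.038 and 0.061, and 0 passed in either fit, where 0% and 0.862% of genes were called. In all 3 pairs, 1 was higher and 1 lower, against 11.5% and 13.3% of all genes tested. Bpgm, the red cell enzyme whose product lowers the oxygen affinity of hemoglobin, spanned 28.7 to 34.6 CPM in WT and read 36.1, 106 and 39.8 CPM in the KO replicates. Its log2 fold change was 0.98 (SE 0.45), and 0.39 in the pairs 1 and 3. Eif2ak1, the kinase that stops globin translation when heme is short, overlapped between WT (63.1 to 158 CPM) and KO (73.1 to 160.2 CPM). Ube2o, which marks free alpha chains for destruction, and Hmox1, which breaks heme down, had log2 fold changes of 1.16 and 2.11. These were -0.088 and -0.29 without KO replicate 2.

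The genes whose levels over the 6 libraries were most like the mean log2 CPM of the adult globins were Alas2, Trib3, Spag5, Atxn1l, Slc4a1 and Bpgm, in that order, among 9757 genes compared. Pearson's r was 0.998 for Alas2 and 0.988 for Bpgm, and Spearman's rho 0.886 to 1.00 over the 6 genes. These are descriptions over 6 libraries that share KO replicate 2 as an extreme, and 93 genes had an r over 0.95. Trib3 and Atxn1l met the limit of 5 CPM in the higher group only through KO replicate 2. Trib3 read 1.28, 23.5 and 2.28 CPM in the KO replicates and 0.356 to 0.620 CPM in WT. Atxn1l read 3.97, 6.97 and 4.33 CPM in the KO replicates and 3.49 to 3.83 CPM in WT. Without KO replicate 2 and WT replicate 3, the libraries farthest from the median, r over the 4 left was 0.827 to 0.999. Among themselves the 4 adult genes had an r of 0.985 to 0.999, with the reads shared by the copies left as counted. Slc4a1 read 6.69, 4.75 and 2.70 CPM in the WT replicates and 13.6, 678 and 9.99 CPM in the KO replicates, and the genotypes did not overlap. Its log2 fold change in the pairs 1 and 3 was 1.42 (SE 0.33, edgeR adjusted p = 0.055). Spag5, a spindle protein gene, spanned only 24.8 to 66.4 CPM and still followed the same order of libraries.

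Genes beside the clusters were read as well. Within 100 kb of the alpha cluster 9 other genes have rows, of which 5 passed the filter. Nprl3, whose introns hold the main alpha-globin enhancers, spanned 23.6 to 29.5 CPM in WT and read 23.5, 50.3 and 34.8 CPM in the KO replicates. Its log2 fold change was 0.41 (SE 0.34), within the spread of the libraries, and 0.11 in the pairs 1 and 3. Mpg, a DNA glycosylase gene that overlaps Nprl3 on the other strand, Rhbdf1, Snrnp25 and Sh3pxd2b did not pass either, at 0.099, 0.92, -0.050 and -0.29. Without strand, reads of Mpg and Nprl3 cannot be told apart where they overlap. Mpg, Snrnp25 and Sh3pxd2b changed sign under some alternatives. Within 100 kb of the beta cluster, 18 of 19 other rows had 0 counts, all 13 olfactory receptor genes among them. The exception was the pseudogene Dnajc19-ps, with 22 to 159 counts.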

How the data were processed

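RNA-seq of 6 MEP pools was analysed. The authors deposited a table of unscaled whole-number counts with 1 row per Ensembl gene, each with a name. Per the submitters' processing notes, FastQC 0.11.5, STAR 2.5.3a and edgeR were used, and the builds GRCm38.p3 and GRCh38.p3 are named. The sources used here do not give the read counter, its strand and multi-mapping settings or the annotation. Nextera XT libraries do not mark the strand. Of 52319 gene IDs shared with GENCODE M21 (GRCm38), 95.2% had the same coordinates, and coordinates are printed as deposited. Transcript lengths are the longest in GENCODE M21.

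The filter was filterByExpr of edgeR 4.0.16 (minimum count 10, minimum total 15). Libraries were scaled by TMM and compared with its quasi-likelihood test, two-sided, with Benjamini-Hochberg adjustment over 13453 genes and a threshold of 0.05. SE is the log2 fold change over the root of its F statistic. Log2 CPM add a prior count of 2. Paralog counts were summed without a test. R 4.3.3, limma 3.58.1 and DESeq2 1.42.0 were used. The fits were also run on simulated counts without a replicate effect or an outlying library. That run does not bear on KO replicate 2. Named genes were all members, up to 3 of smallest p per list, neighbours within 100 kb and the 6 of largest Pearson r with at least 5 CPM in the higher group; not all are reported, and genes that were named to describe a list's role were chosen after their values were seen. Members, lists and tests were chosen with earlier results of these data known. Same-numbered libraries deviated together from their group means in pairs 1 and 3 (r = 0.53 and 0.63 across genes) and only weakly in pair 2 (0.16). The numbers were used as pairs on this ground, and no label explains them. The 15 alternatives cover the block, pairs 1 and 3, scaling, tool, filter and each library left out.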

Additional observations from a re-analysis of the deposited data

How the results depend on the processing

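All 4 adult globins were higher in KO under each of the 15 alternatives. With every KO library above every WT library, leaving out 1 library left little room for another sign. Leaving out 1 library at a time gave log2 fold changes of 1.39 to 4.37 for Hbb-bs, 1.18 to 4.09 for Hbb-bt, 1.18 to 4.28 for Hba-a1 and 1.15 to 3.71 for Hba-a2, lowest in each gene without KO replicate 2, with edgeR adjusted p of 0.91 to 1.00. The pairs 1 and 3 with a replicate block called 117 genes, 3 of them adult globins (1.68 for Hbb-bs, 1.30 for Hba-a1 and 1.29 for Hbb-bt), against 0 and 0 in the 6 libraries. DESeq2 called 6 genes and, with the replicate block, 24, of which 0 were globins. DESeq2 without a block gave no p for Hba-a1, Hbb-bs and Hbb-bt. The replicate block on 6 libraries changed no call of a globin. At an unadjusted p under 0.05, edgeR had 234 genes, edgeR with the block 476, DESeq2 346 and limma voom 97. Among 21 other named genes, 6 changed sign under some alternative. Leaving out 1 library gave -0.29 to 2.93 for Hmox1, -0.088 to 1.60 for Ube2o, -0.27 to 0.57 for Mpg, -0.68 to 0.46 for Sh3pxd2b, -0.80 to 0.59 for Snrnp25 and -0.54 to 0.96 for Dnajc19-ps. In the pairs 1 and 3 Mpg was at -0.035 and Snrnp25 at 0.11. The cause of these changes was not tested. Hba-x, Hbb-bh1 and Hbb-y lay at or under 3 counts. The alternative with no filter on low counts kept any gene with a count, so it fitted Hba-x and Hbb-y. Their fold changes rest on those few counts and are not given. With about 100 to 300 counts per WT library, Hba-a2 and Hbb-bt carried a larger relative counting error than Hba-a1 and Hbb-bs. This does not cover the spread between libraries.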

Other observations

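The alpha cluster also holds the theta globin genes, whose protein is not known to take part in adult hemoglobin. Hbq1b (chromosome 11, 32286965 to 32287784), between Hba-a1 and Hba-a2, had WT counts of 2, 9 and 2 and KO counts of 17, 188 and 4, in replicate order. It was at 0.0922 to 0.620 CPM in WT, and KO replicate 3, at 0.294 CPM, lay within that range. It did not pass the filter on low counts over the 6 libraries. Its copy Hbq1a had 1 count, in KO replicate 2. The beta cluster's Hbb-bh2 had 0 counts in all libraries. The alpha pseudogene Hba-ps4 on chromosome 17 had 1 count, in WT replicate 2. The interleukin 9 receptor gene Il9r, a neighbour of the alpha cluster, had 13 counts in KO replicate 2, 0 in the other KO libraries and 3 to 4 in WT.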
